A study of Mus musculus with 18 samples.

Results

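Expression of 10 genes of the bone morphogenetic protein (BMP) pathway was measured by RNA sequencing in 6 sorted cell populations of the mouse trachea and lung. The genes were chosen by name: the ligands Bmp2, Bmp3, Bmp4, Bmp5 and Bmp7, the type I receptor Bmpr1a, the antagonist Fst (follistatin), and the BMP target genes Id1, Id2 and Id3. All 10 were found by their Entrez identifiers among the 27179 genes counted, and all 10 were among the 17989 that passed the filter on low counts. Each population was represented by 3 libraries, 18 in all, from untreated C57BL/6 mice, which the study's methods describe as males aged 8 to 12 weeks. Basal cells (gated as NGFR pos) and Non-Basal cells (NGFR neg) came from the trachea of mice 1 to 3. Airway CD24H cells (EpCAM pos, CD104 pos, CD24hi, labelled as enriched in ciliated cells), Airway CD24L cells (the same gate with CD24lo, labelled as enriched in club cells), Alveolar cells (EpCAM pos, CD104 lo) and EpCAM neg cells (non-epithelial) came from the lungs of mice 4 to 6. Organ and mouse therefore change together, so that a difference between a tracheal and a lung population cannot be told apart from a difference between organs or between these animals. The series' design text speaks of small and large airway of mouse lungs and does not name the trachea. The assignment used here is that of the sample labels.

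BMPs are secreted ligands of the TGF-beta family. They bind a complex of type I and type II serine/threonine kinase receptors, which phosphorylates Smad1, Smad5 and Smad9. These bind Smad4 and switch on target genes, among which the Id genes (inhibitors of DNA binding) are widely used as a readout of the pathway. Id proteins lack a DNA-binding domain and hold E-proteins in inactive pairs. Secreted antagonists such as follistatin, noggin and chordin bind ligands outside the cell, and the inhibitory Smads, Smad6 and Smad7, act inside it. In the lung the pathway is known for its part in branching of the airways and in the differentiation of epithelium.

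Between 29317215 and 32993621 reads were counted per tracheal library and between 9811503 and 13208897 per lung library. Levels are given as RPKM (read counts divided by the gene's counted length and by the library size, scaled by TMM), which allows genes of different length to be compared. The genes of the gates followed the labels. Ngfr was at 39.7 RPKM in Basal and 3.99 in Non-Basal cells, Cd24a at 1103 in Airway CD24H and 340.2 in Airway CD24L, and Epcam at 1.76 in EpCAM neg against 86.4 to 121 in the other groups. RNA of other cell types was present in several gates. The 4 endothelial markers Pecam1, Cdh5, Kdr and Tek summed to 40.6 to 129 RPKM in Airway CD24H, 91.0 to 189 in Airway CD24L, 30.2 to 60.5 in Alveolar and 111 to 168 in EpCAM neg libraries, although Pecam1 encodes CD31 and the methods describe the alveolar gate as CD31-negative. In the trachea the same sum lay between 0.207 and 0.791 RPKM, with Cdh5 at 0 reads in Basal cells. Within both airway populations the library of mouse 4 held the highest sum, 129 RPKM against 65.6 and 40.6 in Airway CD24H and 189 against 97.2 and 91.0 in Airway CD24L. The values without mouse 4 are therefore given wherever they change a result. In sorted bulk RNA, fewer cells of a type and less RNA per cell cannot be told apart.

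The 10 genes did not share one pattern. Levels of 6 of them (Bmp3, Bmp4, Bmp5, Bmp7, Fst and Id3) were highest in the EpCAM neg cells, 2 (Bmp2 and Id2) were highest in Alveolar cells, and 2 (Bmpr1a and Id1) in Basal cells. The highest and lowest group means differed least for Bmpr1a, by 3.19-fold, and most for Fst, by 139-fold. All levels below are single-library values or means ± SD of 3 libraries, and the numbered replicates of a group are in the order of the labels.

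**Figure D1:**
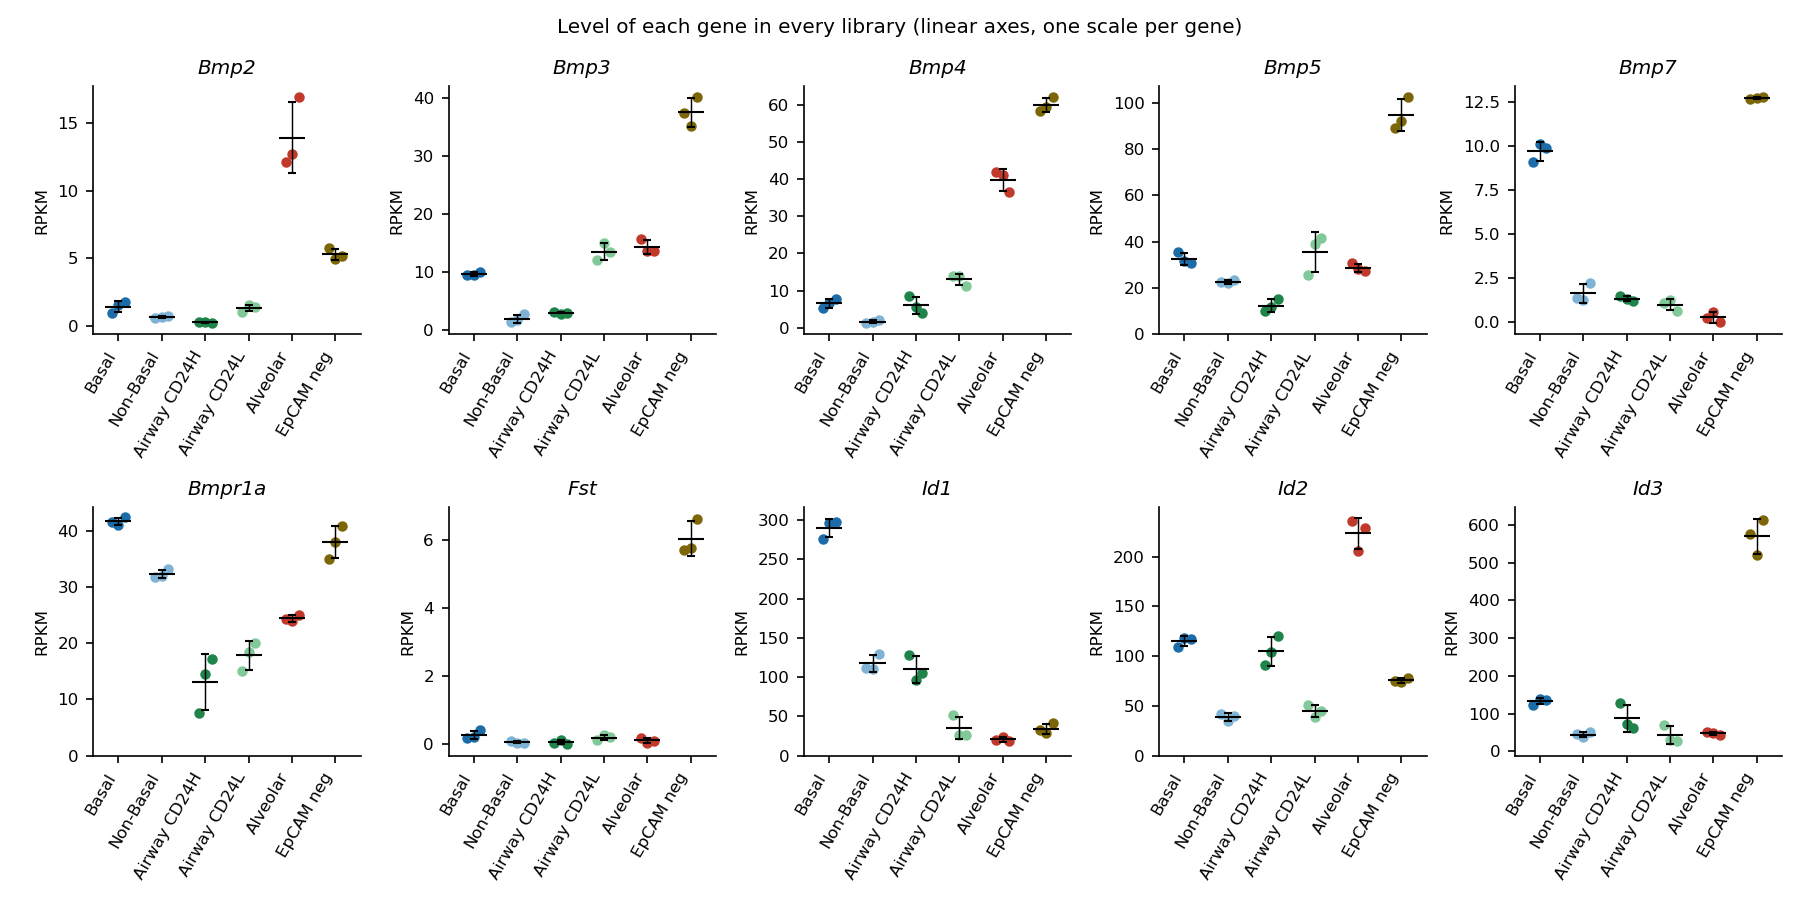
RPKM of each of the 10 genes (vertical axes, linear, one scale per gene) in the 6 populations. Points are single libraries, horizontal lines the means of 3 libraries and error bars 1 SD. Bmp2 and Id2 peaked in Alveolar cells, Id1 and Bmpr1a in Basal cells and the other 6 genes in EpCAM neg cells.

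Among the ligands, Bmp2 was highest in Alveolar cells. Its level was 12.2, 12.7 and 16.9 RPKM in the 3 Alveolar libraries and 5.75, 4.99 and 5.15 in EpCAM neg cells. Every other library was below 1.75, and the lowest group was Airway CD24H with 0.270, 0.295 and 0.219 RPKM, from 9, 10 and 7 reads. No Alveolar library overlapped with any other group, while Basal (1.40 ± 0.407, n = 3) and Airway CD24L (1.33 ± 0.242, n = 3) did overlap with each other. Bmp4, which is closely related to Bmp2 in sequence and receptor use, was at 58.4, 59.3 and 62.0 RPKM in EpCAM neg and 41.9, 41.1 and 36.4 in Alveolar cells. Lower levels were found in the other groups, with 13.8, 14.03 and 11.3 in Airway CD24L, 6.59 ± 1.23 in Basal, 6.01 ± 2.31 in Airway CD24H and 1.65 ± 0.349 in Non-Basal cells. Only Basal and Airway CD24H overlapped in this order.

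Bmp3, an unusual family member that is known to oppose other BMPs, was at 37.4, 35.2 and 40.2 RPKM in EpCAM neg cells. Alveolar cells (15.8, 13.7 and 13.6) and Airway CD24L cells (12.04, 14.96 and 13.5) followed at overlapping levels. Basal cells held 9.50, 9.49 and 10.1 RPKM, all above Airway CD24H (2.99 ± 0.125) and Non-Basal cells (1.94 ± 0.702). Bmp5, a ligand of the group that includes Bmp6 and Bmp7, was the most abundant of the 5 ligands in all groups but Alveolar. Its libraries read 89.3, 92.3 and 103 RPKM in EpCAM neg, 25.6, 39.0 and 41.6 in Airway CD24L, 35.3, 31.6 and 30.7 in Basal and 30.6, 28.3 and 27.3 in Alveolar cells. Non-Basal (22.7 ± 0.839) and Airway CD24H cells (9.85, 11.9 and 15.2) were lower and did not overlap with the groups above them. In the GENCODE annotation 46.7% of the exonic bases of Bmp5 are shared with the antisense gene Gm26903. The strand setting of the counting is not given in the sources used here, so reads of the pair cannot be told apart. For Bmp4, Bmpr1a and Fst the shared part was 3.96%, 4.57% and 2.51%, and the other 6 genes shared no exonic base with another gene.

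Bmp7 had a different distribution from the other ligands. It was at 12.6, 12.7 and 12.8 RPKM in EpCAM neg cells and at 9.09, 10.1 and 9.90 in Basal cells. Non-Basal (1.64 ± 0.517), Airway CD24H (1.34 ± 0.149) and Airway CD24L cells (0.989 ± 0.311) overlapped at a low level. In the Alveolar libraries it was nearly undetected, with 5, 13 and 0 reads. Alveolar cells thus had the highest Bmp2 level of the 6 groups and the lowest Bmp7 level.

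Bmpr1a, which encodes the BMP receptor ALK3, was expressed in every library. It reached 41.5, 41.1 and 42.4 RPKM in Basal cells and 35.0, 38.1 and 40.9 in EpCAM neg cells. Non-Basal cells were at 31.8, 32.0 and 33.2 and Alveolar cells at 24.2, 23.9 and 25.1. These 4 groups did not overlap with one another, although the lowest Basal value (41.1) was close to the highest EpCAM neg value (40.9). Airway CD24L (14.99, 18.5 and 20.04) and Airway CD24H cells (7.54, 14.5 and 17.2) were lowest and overlapped, and in each of them mouse 4 gave the lowest value. Fst, whose product binds activins and several BMPs, was measured well in EpCAM neg cells alone, at 5.70, 5.76 and 6.62 RPKM from 166, 163 and 203 reads. In Basal cells it had 14, 18 and 34 reads, and in the remaining 4 groups no library had more than 6 reads.

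The 3 Id genes differed from each other in where they peaked. Id1 was at 277, 296 and 298 RPKM in Basal cells. Non-Basal (112, 111 and 130) and Airway CD24H cells (129, 95.9 and 105) overlapped at an intermediate level. Airway CD24L (51.6, 26.9 and 26.7) and EpCAM neg cells (32.4, 29.1 and 41.0) also overlapped, and Alveolar cells were lowest with 20.4, 23.6 and 18.1. Id2 was highest where Id1 was lowest: 236, 206 and 228 RPKM in Alveolar cells against 109, 118 and 117 in Basal cells. Airway CD24H cells (90.7, 105 and 120) overlapped with Basal, EpCAM neg cells were at 74.9, 73.8 and 78.1, and Airway CD24L (44.6 ± 6.05) and Non-Basal cells (38.9 ± 3.96) were lowest. Id3 was chiefly a transcript of the EpCAM neg cells, with 575, 522 and 614 RPKM. Basal cells (124, 139 and 136) overlapped with Airway CD24H cells because of a single library (127, 72.3 and 62.3), that of mouse 4. Alveolar (47.3 ± 2.98), Non-Basal (44.0 ± 6.29) and Airway CD24L cells (69.8, 30.7 and 26.3) overlapped at the lowest level.

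Id2 and Id3 peaked in different populations, and the 250 bases before their annotated starts are shown, from the RefSeq promoter table of build GRCm38.p6, which held 5 of the 10 genes (Bmp4, Bmp5, Bmpr1a, Id2 and Id3). Capitals mark 2 short sequences that Smad proteins are known to bind: GGCGCC, which reads the same on both strands, and GTCT, searched on both strands (AGAC is its complement). The sequences run 5′ to 3′ on the strand of the gene, Id3 at chr4:136143572-136143821 on the plus strand and Id2 at chr12:25096093-25096342 on the minus strand.
Id2: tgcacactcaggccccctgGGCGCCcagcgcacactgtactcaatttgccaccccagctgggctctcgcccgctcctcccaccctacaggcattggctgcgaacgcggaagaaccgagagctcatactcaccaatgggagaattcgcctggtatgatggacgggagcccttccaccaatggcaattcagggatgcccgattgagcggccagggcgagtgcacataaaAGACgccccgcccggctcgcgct
Id3: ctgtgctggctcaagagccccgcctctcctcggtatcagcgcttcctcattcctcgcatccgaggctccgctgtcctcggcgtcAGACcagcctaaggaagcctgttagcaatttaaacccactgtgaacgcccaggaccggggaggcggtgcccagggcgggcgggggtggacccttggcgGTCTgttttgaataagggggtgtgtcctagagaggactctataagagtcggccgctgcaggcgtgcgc
The Id2 window held 1 GGCGCC and 1 GTCT, and the Id3 window held 0 and 2. Of all 32851 promoter windows of this length in the table, 9.59% held GGCGCC and 82.9% held GTCT on either strand. The E-box CANNTG, the site of the factors that Id proteins restrain, occurred 1 time in the Id2 window, 0 times in that of Id3 and in 66.2% of all windows. TATAA was found 1 time before Id3, 0 times before Id2 and in 22.8% of all windows. Both windows were 62.8% G or C, against a median of 52.4%. No match overlapped with another. These are matches of letters, and no binding was measured.

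When the 5 ligands were summed, the total was 210 ± 10.8 RPKM in EpCAM neg, 97.2 ± 3.25 in Alveolar, 64.3 ± 9.31 in Airway CD24L, 59.9 ± 0.465 in Basal, 28.6 ± 2.30 in Non-Basal and 22.9 ± 0.983 in Airway CD24H cells (n = 3 each). Bmp5 made up 79.6% ± 3.82 of this sum in Non-Basal cells and 45.03% to 54.6% in Basal, Airway CD24H, Airway CD24L and EpCAM neg cells. In Alveolar cells Bmp4 was the largest part (41.0% ± 2.07), followed by Bmp5 (29.6% ± 0.738), Bmp3 (14.8% ± 0.791) and Bmp2 (14.4% ± 3.13). Bmp2 was between 1.15% and 2.53% elsewhere. Of the summed Id1, Id2 and Id3 RNA, Id1 was 53.9% ± 0.446 in Basal and 58.7% ± 2.16 in Non-Basal cells, Id2 was 76.6% ± 2.23 in Alveolar cells, and Id3 was 83.9% ± 0.382 in EpCAM neg cells. The airway populations had no dominant Id gene, with shares of 28.3% to 36.3% in Airway CD24H and 28.4% to 38.4% in Airway CD24L. A share does not depend on how libraries were scaled to one another.

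**Figure D2:**
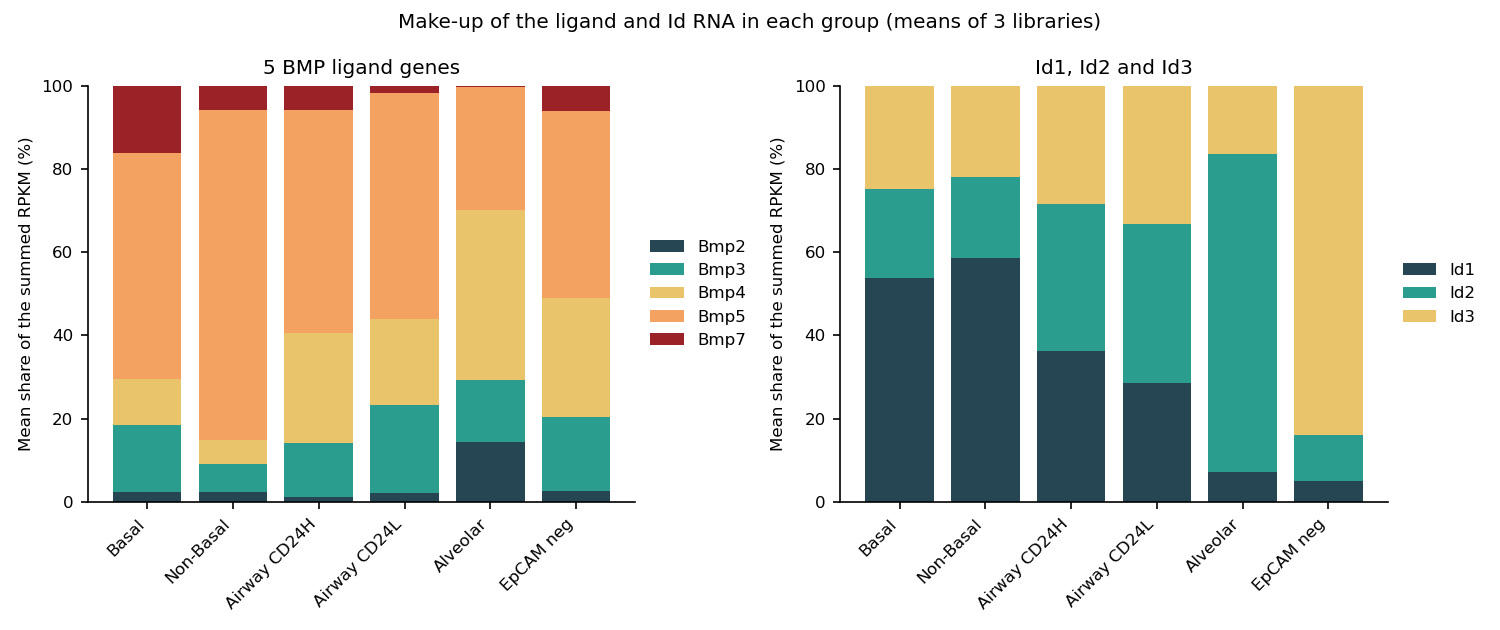
Mean share (vertical axes, % of the summed RPKM, 3 libraries per group) of each gene in the RNA of the 5 ligands and of the 3 Id genes, by population. Alveolar cells had the largest Bmp4 (41.0%), Bmp2 (14.4%) and Id2 (76.6%) shares, and EpCAM neg cells the largest Id3 share (83.9%).

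Populations were compared with edgeR's quasi-likelihood test, fitted to all 18 libraries, and p-values were adjusted by Benjamini-Hochberg over all 17989 genes. Differences are log2 fold changes ± SE, and a gene was called at an adjusted p under 0.05. So many genes differ between sorted cell types that the share of all genes called is given beside each count. The labels give each library its mouse, so populations of the same organ can be paired by animal. A second fit with this pairing (a replicate block), made on the libraries compared alone, is quoted where it changed a call.

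In the trachea, where the comparison asks how basal cells differ from the remaining epithelial cells, 9 of the 10 genes were higher in Basal cells and none was lower, where 48.2% of all genes tested were called in either direction. The median log2 fold change was 1.58 for the 10 genes and -0.02 for all genes. All 10, Bmpr1a included, had Basal and Non-Basal values that did not overlap. The share of all genes without such overlap is not given here, since the 48.2% refers to calls, so this count has no background beside it. The ligand Bmp7 differed by 2.56 ± 0.265 (5.89-fold, edgeR adjusted p = 3.77e-07), Bmp3 by 2.32 ± 0.169 (adjusted p = 5.44e-09) and Bmp4 by 1.99 ± 0.214 (adjusted p = 5.92e-07). Bmp2 (1.06 ± 0.209, adjusted p = 0.000392) and Bmp5 (0.52 ± 0.153, adjusted p = 0.00958) differed less. All 3 Id genes were higher in Basal cells by similar amounts, Id3 by 1.59 ± 0.282 (adjusted p = 0.000152), Id2 by 1.56 ± 0.115 (adjusted p = 5.98e-09) and Id1 by 1.30 ± 0.194 (adjusted p = 2.49e-05). Fst was higher by 2.53 ± 0.537 (adjusted p = 0.000801), from 66 reads in Basal and 9 in Non-Basal libraries.

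The receptor Bmpr1a was 1.29-fold higher in Basal cells and was not called (0.36 ± 0.187, adjusted p = 0.121). In a fit of the libraries compared alone it was called without pairing (0.35, adjusted p = 0.000276). With the replicate block it was too (0.35, adjusted p = 1.87e-05), and the count became 10 of 10. It also was when libraries were scaled by their size alone (0.71, adjusted p = 0.00339). Basal markers amounted to 5.41% to 12.7% of their Basal level in the Non-Basal libraries, and the 10 genes to 16.3% (Fst) to 77.7% (Bmpr1a). Of the 5 fibroblast markers, Col1a1, Col1a2, Col3a1 and Pdgfra were at or below 0.0348 RPKM in Basal cells. In Non-Basal cells they were higher, at 1.36, 1.51, 2.81 and 0.173 RPKM. Dcn went the other way, at 161 RPKM in Basal and 31.9 in Non-Basal cells, and made up nearly all of the Basal sum. The summed list lay between 159 and 163 RPKM in Basal and between 28.8 and 45.4 in Non-Basal libraries.

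In the airway of the lung, the ligands Bmp2 to Bmp5 and the Id genes went in opposite directions between the CD24 gates. Of the 10 genes, 3 were higher and 4 lower in Airway CD24H than in Airway CD24L cells, where 55% of all genes were called, and the medians were -0.78 for the 10 and -0.06 for all genes. The ligands Bmp2 (-2.33 ± 0.313, adjusted p = 5.54e-06), Bmp3 (-2.17 ± 0.176, adjusted p = 1.35e-08), Bmp5 (-1.52 ± 0.161, adjusted p = 3.17e-07) and Bmp4 (-1.12 ± 0.208, adjusted p = 0.000184) were lower in the ciliated-enriched gate. Id1 (1.64 ± 0.204, adjusted p = 2.30e-06), Id2 (1.24 ± 0.116, adjusted p = 7.75e-08) and Id3 (1.04 ± 0.287, adjusted p = 0.00516) were higher there. Bmp7 was not called (0.42, 95% confidence interval -0.38 to 1.21).

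The Id3 values of these gates overlapped. Its difference was 0.66 without the CD24H library of mouse 4 (adjusted p = 0.0421) and 1.61 without its CD24L library (adjusted p = 1.52e-05). In a fit of these 6 libraries alone the call was lost (1.03, adjusted p = 0.0622), whereas with the replicate block it held (1.09, adjusted p = 0.000201). Bmpr1a missed the threshold (-0.45 ± 0.192, adjusted p = 0.0579) and passed it with the replicate block (-0.54, adjusted p = 0.0244). It also passed without Airway CD24H replicate 3 (-0.69, adjusted p = 0.00507), without Airway CD24L replicate 1 (-0.56, adjusted p = 0.03), without mouse 4 (-0.28, adjusted p = 0.0152) and by limma voom (-0.52, adjusted p = 0.0324). These were 5 of 17 alternatives. The difference shrank to -0.17 without Airway CD24H replicate 1 (adjusted p = 0.188) and to -0.15 with scaling by library size alone (adjusted p = 0.537). Fst, with 5 and 13 reads in all, was not called (adjusted p = 0.0822) except by leaving out Airway CD24H replicate 2 (-3.30, adjusted p = 0.0187), by limma voom (adjusted p = 0.0251) and by DESeq2 (adjusted p = 0.0499). Ciliated markers in Airway CD24L cells amounted to 9.66% to 11.9% of their Airway CD24H level and were highest in mouse 4, at 230 RPKM in sum against 103 and 110. Summed markers of several other cell types were lower in Airway CD24H than in Airway CD24L libraries, without overlap. Summed fibroblast markers ranged from 32.8 to 58.5 RPKM against 161 to 189, smooth muscle and pericyte markers from 12.1 to 29.1 against 46.5 to 100.3, alveolar type 2 markers from 1068 to 2146 against 4016 to 6921 and basal markers from 4.51 to 5.46 against 41.9 to 76.3. Dcn, at 17.5 RPKM in Airway CD24H and 104 in Airway CD24L, made up most of the fibroblast sum of Airway CD24L. Mean levels of the other fibroblast markers ranged from 3.18 (Pdgfra) to 10.5 (Col3a1) against 6.41 to 29.9. Endothelial sums (40.6 to 129 against 91.0 to 189) and haematopoietic sums (8.26 to 12.7 against 9.90 to 13.7) overlapped between the gates. No marker of these lists was at 0 in either group, and their part in the ligand values was not tested.

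Against Alveolar cells, the 2 airway populations had less Bmp2 and Bmp4 and less Id2, and more Bmp7 and Id1. These 2 comparisons use the same Alveolar libraries. In Airway CD24L cells 2 genes were higher and 3 lower, with 48.4% of all genes called, and the medians were -0.12 and 0.03. Without mouse 4 the count was 1 higher and 5 lower. In Airway CD24H cells 3 were higher and 6 lower, with 61.9% of all genes called, and the medians were -1.01 and -0.01. Bmp2 was 10.5-fold lower in Airway CD24L (-3.39 ± 0.214, adjusted p = 5.02e-10) and 52.7-fold lower in Airway CD24H cells (-5.72 ± 0.26, adjusted p = 3.58e-12). Bmp4 was 3.05-fold lower in Airway CD24L (-1.61 ± 0.196, adjusted p = 2.21e-06) and 6.62-fold lower in Airway CD24H cells (-2.73 ± 0.206, adjusted p = 2.21e-09). Id2 was 5.01-fold lower in Airway CD24L (-2.33 ± 0.119, adjusted p = 3.46e-11) and 2.13-fold lower in Airway CD24H cells (-1.09 ± 0.114, adjusted p = 1.61e-07).

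Bmp3 and Bmp5 separated the airway gates from each other with respect to Alveolar cells. In Airway CD24H cells both were lower, Bmp3 by 4.81-fold (adjusted p = 2.98e-09) and Bmp5 by 2.34-fold (adjusted p = 2.89e-06). In Airway CD24L cells neither was called (Bmp3 -0.09 with a 95% confidence interval of -0.43 to 0.24, Bmp5 0.30 with -0.03 to 0.63). Without the CD24L library of mouse 4 Bmp5 was called as higher (0.49, adjusted p = 0.00538). The same held without all libraries of mouse 4 (0.54, adjusted p = 0.000702). Bmpr1a was 1.87-fold lower in Airway CD24H cells (adjusted p = 0.000541). In Airway CD24L cells it missed the threshold (-0.45 ± 0.191, adjusted p = 0.0607) and passed it without mouse 4 (-0.34, adjusted p = 0.00499). It also passed in a fit of the libraries compared alone, both without pairing (-0.40, adjusted p = 0.0166) and with the replicate block (-0.41, adjusted p = 0.0101). Bmp7 was higher in both airway gates, by 1.81 ± 0.515 (adjusted p = 0.00752) and 2.22 ± 0.474 (adjusted p = 0.000534). Without Alveolar replicate 2, the library with 13 of the 18 Bmp7 reads, these differences were 3.04 and 3.45. Without Alveolar replicate 3, the library with 0 Bmp7 reads, they were 1.29 and 1.705. The call in Airway CD24L cells was lost in a fit of those 6 libraries alone (adjusted p = 0.06) and without mouse 4 (1.60, adjusted p = 0.0757). Fst was not called in either airway gate (adjusted p = 0.402 and 0.39).

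Id1 was 5.30-fold higher in Airway CD24H than in Alveolar cells (2.41 ± 0.212, adjusted p = 1.79e-08). In Airway CD24L cells the excess was 1.70-fold (0.76 ± 0.213, adjusted p = 0.00646) and rested on 1 library. Without Airway CD24L replicate 1 it was 0.37 (adjusted p = 0.0692), and without all libraries of mouse 4 it was 0.36 (adjusted p = 0.0855). The size of the Id3 differences also changed with mouse 4. The Id3 excess in Airway CD24H cells was 0.885 ± 0.285 (adjusted p = 0.0122). Without the CD24H library of mouse 4 it was 0.51 and not called (adjusted p = 0.105). With that mouse left out of every group it was 0.555 and still called (adjusted p = 0.00245). In Airway CD24L cells Id3 was not called (-0.16 ± 0.289, adjusted p = 0.688), and without mouse 4 it was lower (-0.69, adjusted p = 0.00122). Of the endothelial markers, 4 of 4 in Airway CD24H and 3 of 4 in Airway CD24L, Kdr being the exception, were highest in mouse 4. So were Bmp6, Smad6, Acvrl1 and Eng, the last 2 encoding receptors of vascular endothelium, with Eng at 47.8 RPKM against 18.3 and 10.7 in Airway CD24H and 60.3 against 18.7 and 13.8 in Airway CD24L. Bmp5 and Bmpr1a were lowest in that mouse in both gates. The part of the endothelial RNA in these values was not tested.

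**Figure D3:**
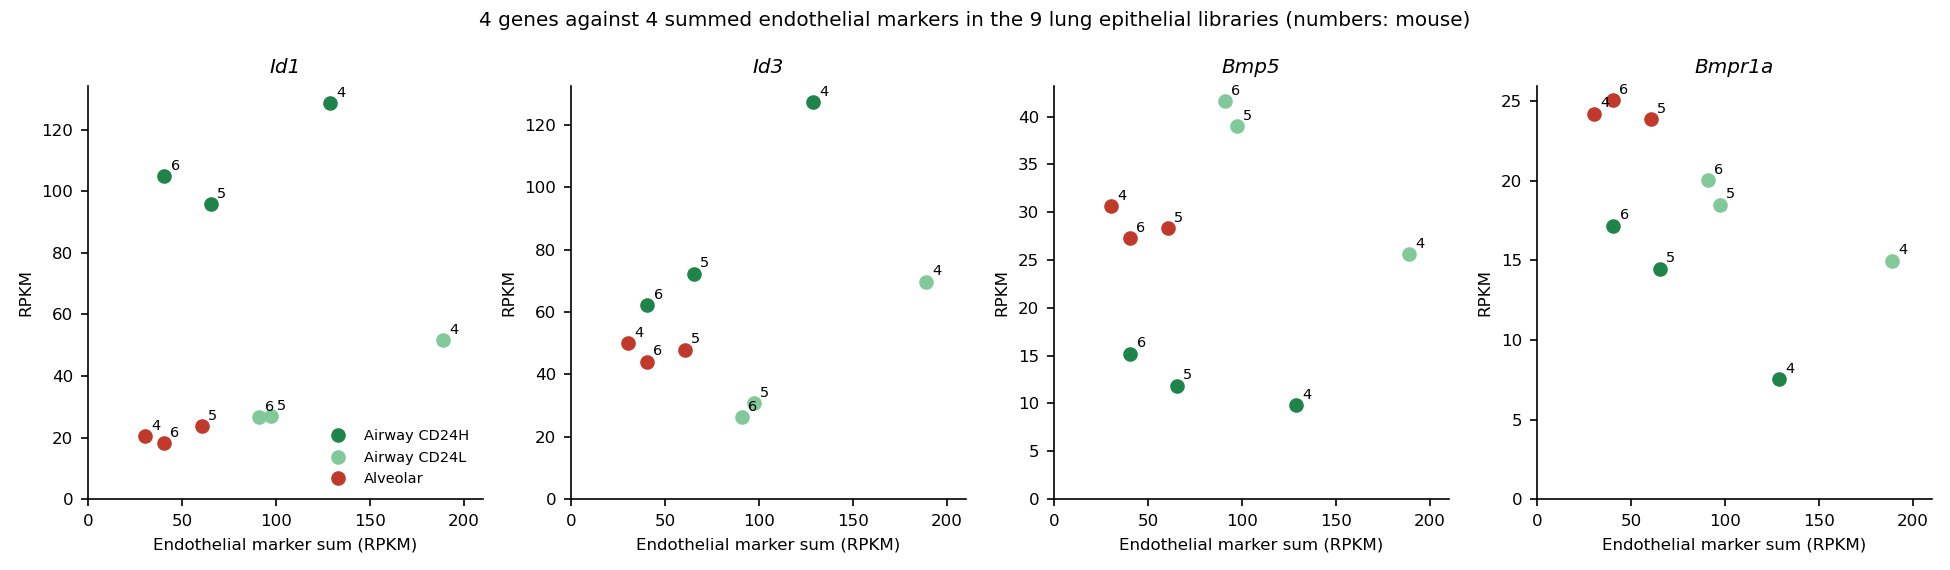
RPKM of Id1, Id3, Bmp5 and Bmpr1a (vertical axes) against the summed RPKM of the endothelial markers Pecam1, Cdh5, Kdr and Tek (horizontal axes) in the 9 lung epithelial libraries, numbered by mouse and coloured by population. In both airway populations the library of mouse 4 lay furthest to the right, with the highest Id1 and Id3 and the lowest Bmp5 and Bmpr1a values.

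The EpCAM neg cells, which held the stroma, were compared with the mean of the 3 epithelial gates of the same lungs on the log scale. Of the 10 genes, 8 were higher and 1 lower, where 69% of all genes were called, with medians of 2.03 and -0.01. Fst (5.83 ± 0.302, 57-fold, adjusted p = 7.24e-12), Bmp7 (4.12 ± 0.229, 17.4-fold, adjusted p = 1.97e-11) and Id3 (3.35 ± 0.206, 10.2-fold, adjusted p = 8.09e-11) differed most. Bmp3, Bmp4 and Bmp5 were each about 2 log2 units higher (2.17, 2.03 and 2.03), and Bmpr1a was higher by 1.09 ± 0.147 (adjusted p = 3.20e-06). Id2 was lower (-0.43 ± 0.095, adjusted p = 0.000685). Id1 was not called (-0.33 ± 0.17, adjusted p = 0.0907), although it was called as lower when Airway CD24L replicate 2 (-0.43, adjusted p = 0.029), Airway CD24L replicate 3 (-0.42, adjusted p = 0.0302) or EpCAM neg replicate 3 (-0.52, adjusted p = 0.0307) was left out. Bmp2 was called as higher (1.64 ± 0.168) against the mean of logs while 2 of the 3 gates were very low. Its arithmetic means were 5.29 RPKM in EpCAM neg and 5.18 over the gates, and Alveolar cells were above both.

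For this reason EpCAM neg cells were also compared with Alveolar cells alone, a comparison added after the values were seen. Then 8 genes were higher and 2 lower, where 61.9% of all genes were called. The 2 lower genes were the alveolar ones, Bmp2 (-1.40 ± 0.182, 2.63-fold, adjusted p = 2.86e-06) and Id2 (-1.56 ± 0.115, 2.96-fold, adjusted p = 1.54e-09). Fst (5.79 ± 0.456, adjusted p = 3.92e-09), Bmp7 (5.47 ± 0.386, adjusted p = 8.68e-10) and Id3 (3.59 ± 0.307, adjusted p = 1.16e-08) differed most. The Bmp7 difference was 6.70 without Alveolar replicate 2 and 4.91 without Alveolar replicate 3. Without Alveolar replicate 1 that of Fst was 6.54. The smallest of the 8 excesses were Id1 (0.72 ± 0.211, adjusted p = 0.00655), Bmpr1a (0.64 ± 0.19, adjusted p = 0.00734) and Bmp4 (0.59 ± 0.185, adjusted p = 0.0104). The Id1 call was lost without EpCAM neg replicate 3 (0.54, adjusted p = 0.0516), and the Bmp4 call without Alveolar replicate 3 (0.50, adjusted p = 0.0564).

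The Alveolar level of Bmp4 was 66.5% of that in EpCAM neg cells, that of Bmp3 38.3% and that of Bmp5 30.3%. The 5 fibroblast markers were at 0.684% to 8.54% of their EpCAM neg level in the same libraries and the 4 smooth muscle and pericyte markers at 2.78% to 5.20%. The 3 mesothelial markers were at 7.49% to 12.7% and the 4 endothelial markers at 21.2% to 35.7%. The 3 haematopoietic markers spread widely, with Cd3e at 9.30%, Ptprc at 17.1% and Cd68 at 159%. Fst (1.74%), Bmp7 (2.18%) and Id3 (8.29%) lay within the fibroblast range, Id3 also within the mesothelial range, and Bmp5 within the endothelial range. Bmp3, Bmp4 and Bmp5 lay within the haematopoietic range. The part of such cells in the Alveolar levels was not tested. Fibroblast markers summed to 132 to 217 RPKM in Alveolar and 6710 to 6999 in EpCAM neg libraries, and none was at 0 in either.

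Basal and Alveolar cells, the progenitor-containing populations that the study set against each other, were compared across organ and animals. Here 4 genes were higher and 4 lower in Basal cells, where 66.1% of all genes were called, and the medians were 0.475 and -0.09. Bmp7 was 33.8-fold higher in Basal cells (5.08 ± 0.386, adjusted p = 2.44e-09) and Id1 was 14-fold higher (3.81 ± 0.221, adjusted p = 5.99e-11). The Bmp7 difference was 6.31 without Alveolar replicate 2 and 4.54 without Alveolar replicate 3. Id3 (1.49 ± 0.286, adjusted p = 0.000187) and Bmpr1a (0.77 ± 0.19, adjusted p = 0.00169) were also higher. Bmp2 was 9.92-fold lower (-3.31 ± 0.193, adjusted p = 6.56e-11), Bmp4 6.05-fold lower (-2.60 ± 0.197, adjusted p = 2.44e-09), Id2 1.94-fold lower (adjusted p = 7.49e-07) and Bmp3 1.48-fold lower (-0.57 ± 0.157, adjusted p = 0.00408). The Bmp3 call was lost when libraries were scaled by their size alone (-0.165, adjusted p = 0.358). Under that scaling Bmp5, not called otherwise (0.18, adjusted p = 0.318), was higher in Basal cells (0.585, adjusted p = 0.00167), as it was in a fit of these 6 libraries alone (0.24, adjusted p = 0.00971). Fst was not called (1.29 ± 0.599, adjusted p = 0.067), but was without Basal replicate 1 (1.52, adjusted p = 0.0355) or Alveolar replicate 1 (2.05, adjusted p = 0.0355) and with DESeq2 (1.35, adjusted p = 0.0432) or scaling by library size alone (1.69, adjusted p = 0.0162).

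**Figure D4:**
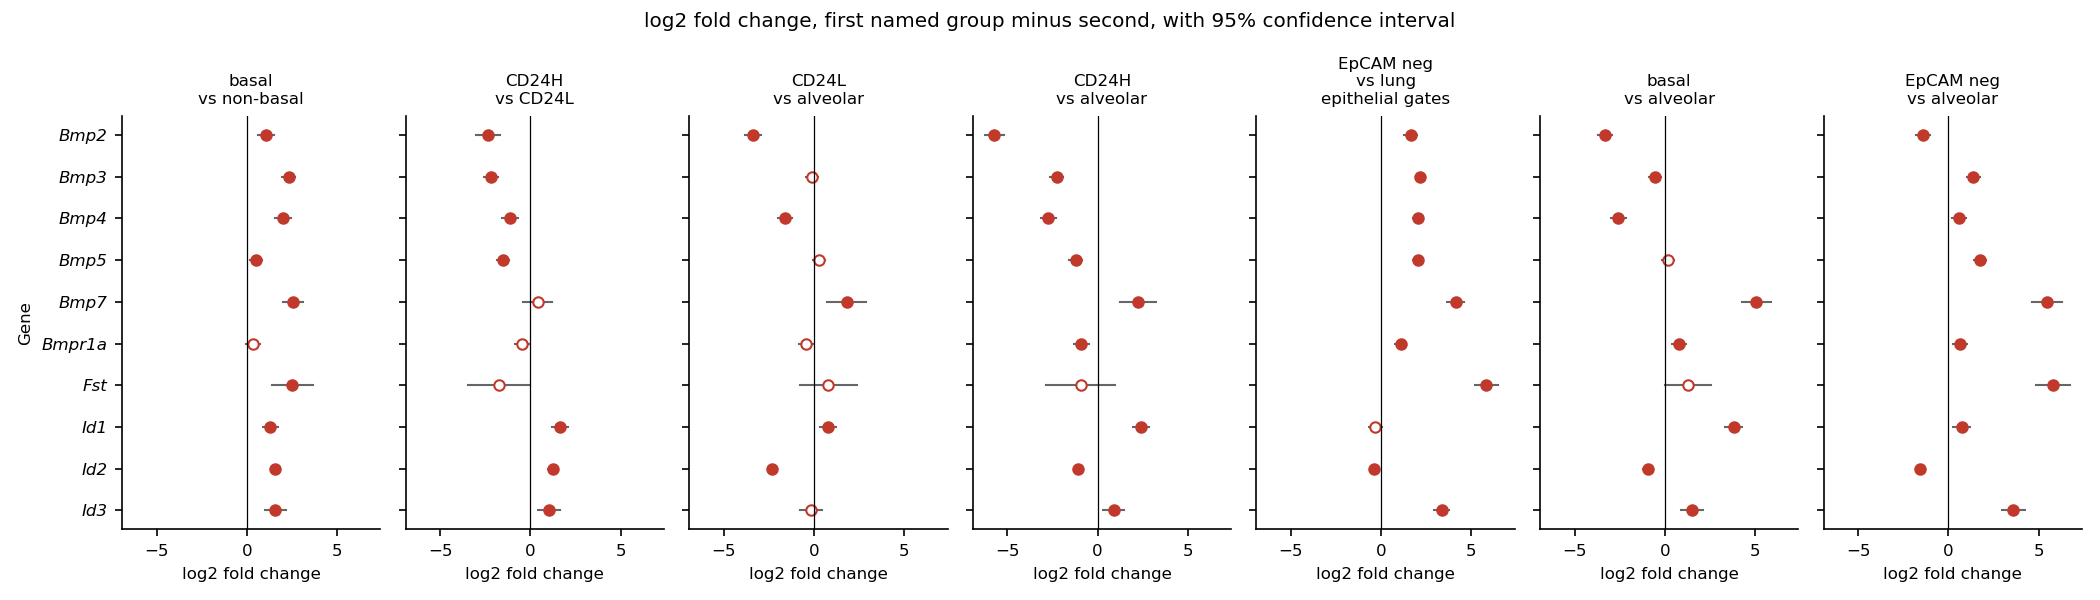
Log2 fold change (horizontal axes, first named population minus the second) of the 10 genes in the 7 comparisons. Circles are the estimates of the fit to all 18 libraries, filled where the adjusted p was under 0.05, and lines are 95% confidence intervals. All 10 lay to the right of 0 in Basal against Non-Basal cells, while the ligands Bmp2 to Bmp5 and the Id genes lay on opposite sides of 0 between the CD24 gates.

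Other genes of the pathway were counted from a list of 57, of which 53 passed the filter: 10 ligands (activin and inhibin subunits included), 11 receptors and co-receptors, 10 Smads and their regulators, 15 antagonists and other extracellular modulators, and 7 targets or partners of Id proteins. In Basal against Non-Basal cells 26 of 53 were higher and 4 lower, 30 in all, where 48.2% of all genes were called, with a median of 0.385. Higher genes included Fstl1, a follistatin-like secreted protein (2.59 ± 0.237, adjusted p = 8.45e-08), Bmp1, the protease that cleaves chordin and procollagens (1.81 ± 0.159, adjusted p = 5.11e-08), the co-receptor Rgma (1.23 ± 0.096, adjusted p = 1.15e-08) and Smad1 (0.66 ± 0.1, adjusted p = 2.75e-05). The 4 lower genes included the type I receptor Bmpr1b, at 7.90 RPKM in Basal and 14.3 in Non-Basal cells (-0.85 ± 0.201, adjusted p = 0.00193), and Inhba, an activin subunit (-3.355 ± 0.441, adjusted p = 6.34e-06). Of the Smads and their regulators 7 of 10 were higher and 0 lower.

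Between the CD24 gates the counts were 13 higher and 14 lower in Airway CD24H cells, 27 of 53 in all, where 55% of all genes were called. Of the 10 other ligands 2 were higher and 1 was lower. The higher ones were Inhbb (1.12 ± 0.125, adjusted p = 6.57e-07) and Inha (0.98 ± 0.183, adjusted p = 0.000198). Of the 14 lower genes, 8 were antagonists or other extracellular modulators, Fstl1 (-1.73 ± 0.237, adjusted p = 7.24e-06) and Bmp1 among them. The receptor-regulated Smads Smad5 (0.87 ± 0.08, adjusted p = 5.88e-08) and Smad9 (1.84 ± 0.256, adjusted p = 8.44e-06) were higher in Airway CD24H cells. Bmpr1b was at 15.9 RPKM in Airway CD24L, 2.27 in Airway CD24H and 0.136 in Alveolar cells, where Bmpr1a was at 24.4. Against Alveolar cells it was higher by 6.88 ± 0.333 in Airway CD24L (adjusted p = 1.61e-11) and by 4.06 ± 0.367 in Airway CD24H cells (adjusted p = 2.42e-08). Bmp1 was the opposite case, with 64.0 RPKM in Alveolar, 12.04 in Airway CD24L and 6.74 in Airway CD24H cells. Id4, the fourth Id gene, was lowest in Alveolar cells like Id1 (2.74 RPKM, against 38.5 in Basal and 12.5 to 29.5 in the other groups). In all, 16 of 53 were higher and 13 lower in Airway CD24L than in Alveolar cells, where 48.4% of all genes were called. In Airway CD24H cells 13 were higher and 15 lower, 28 of 53, where 61.9% of all genes were called.

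In EpCAM neg cells 39 of 53 were higher and 6 lower than in the epithelial gates (69% of all genes called), with a median of 1.18. Against Alveolar cells 38 were higher and 5 lower (61.9% of all genes called). Antagonists and other extracellular modulators made up the largest group: 13 of 15 were higher and none was lower against the gates, with a median of 3.51. Chrdl1 (5.56 ± 0.108, adjusted p = 6.85e-17) and Fstl1 (5.22 ± 0.165, 320.3 RPKM against 9.89, adjusted p = 9.77e-15) were among them. The 6 lower genes included the inhibin and activin subunit Inhbb (-3.03 ± 0.135, adjusted p = 9.04e-13), the ligand Gdf5 (-3.31 ± 0.491, adjusted p = 1.01e-05) and Bmpr1b (-1.97 ± 0.306, adjusted p = 1.68e-05). Against Alveolar cells alone Bmpr1b was higher, at 0.430 against 0.136 RPKM (1.67, adjusted p = 0.00462). Acvrl1 and Eng, which were higher (1.83 and 1.72), also moved with the endothelial markers between the airway libraries, and the part of endothelial cells in them was not tested. Basal cells had 23 higher and 12 lower than Alveolar cells, 35 of 53, a share near the 66.1% called over all genes. Of the 12, 7 were antagonists or other extracellular modulators. Bmper had 0 reads in Basal cells and a mean of 1.78 RPKM in Alveolar cells.

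**Figure D5:**
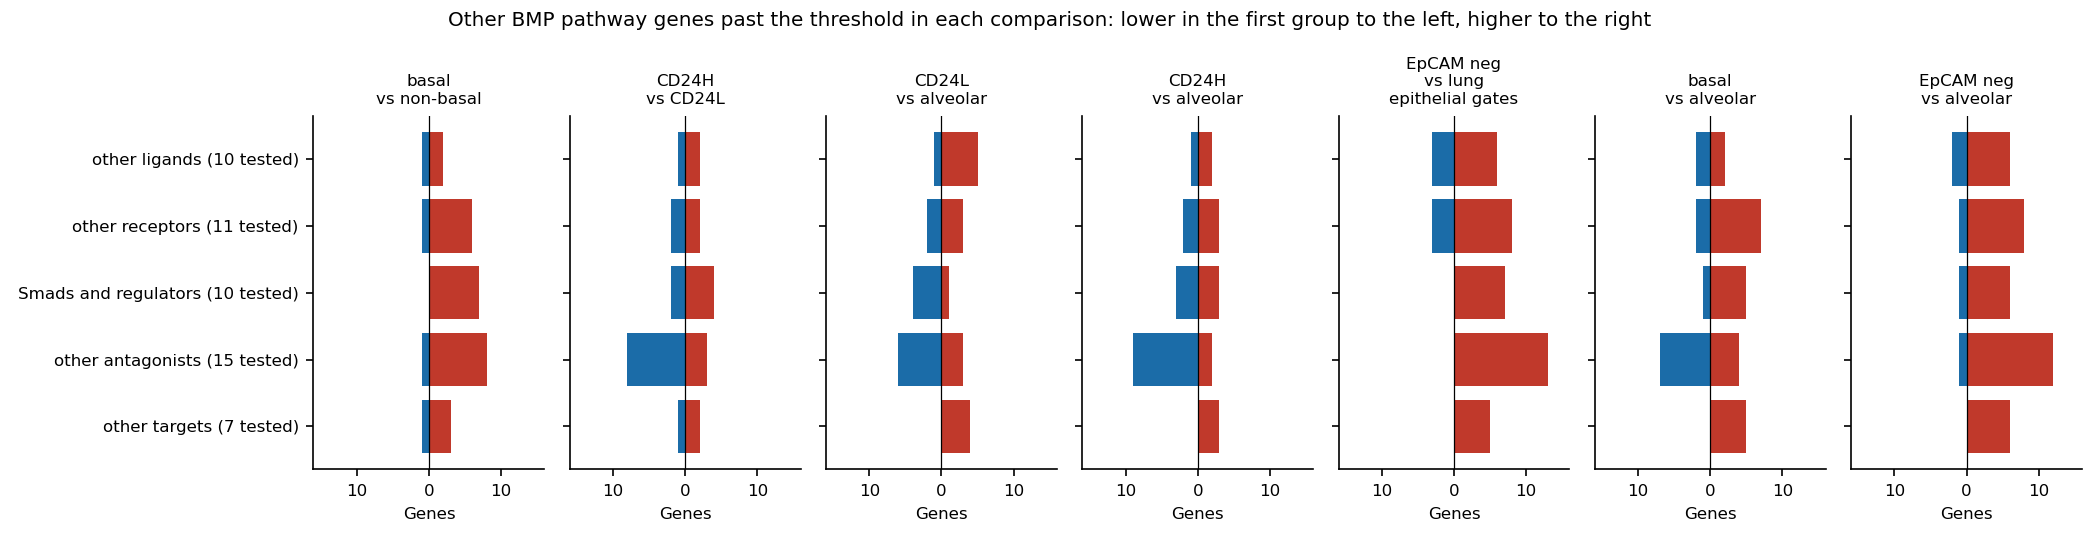
Number of the other pathway genes called as higher (bars to the right of 0) or lower (to the left) in the first named population, by role, in the 7 comparisons. In EpCAM neg cells 13 of 15 antagonists and other extracellular modulators were higher than in the lung epithelial gates, where 35.5% of all genes were called as higher. In Airway CD24H cells 9 of 15 were lower than in Alveolar cells, where 31.4% of all genes were called as lower.

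Likeness of pattern was measured as Pearson's r of log2 CPM over the 18 libraries, which share gates, 2 organs and 6 mice, and is given as a description. Among 10495 candidate genes those most like each gene were Degs1 for Bmp2 (r = 0.975), Sema5a for Bmp3 (0.949), Mylk for Bmp4 (0.985), Nptn for Bmp5 (0.965) and Rad50 for Bmp7 (0.964). For the others they were Ankib1 for Bmpr1a (0.977), Vcl for Fst (0.967), Iffo2 for Id1 (0.979), Gnb1 for Id2 (0.966) and Pcolce, which encodes an enhancer of procollagen processing, for Id3 (0.982). The TGF-beta receptor gene Tgfbr1 was second for Bmpr1a (0.973). By rank correlation (Spearman's rho) the order differed. Of the genes placed first by r, Gnb1 then ranked 1 and Rad50 and Pcolce ranked 6. The others ranked from 14.5 (Ankib1 and Iffo2) to 50.5 (Sema5a). Among the 10 genes themselves the highest values of r were between Bmp3 and Bmp4 (0.912), Bmp5 and Fst (0.883) and Fst and Id3 (0.837). Those of Fst rest on few reads outside EpCAM neg cells. The lowest r was between Bmp4 and Id1 (-0.71), the ligand being highest in EpCAM neg and Alveolar cells and the target in Basal cells.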

How the data were processed

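RNA of FACS-sorted cells was sequenced by the authors as single-end reads. Per the labels, bcl2fastq 1.8.4 and featureCounts were used, and the methods name Rsubread, mm10 and its in-built RefSeq annotation. The authors deposited raw counts per Entrez gene without normalisation, together with gene lengths (27179 genes). One combined table duplicates these counts and was left aside. All rows named a gene. Symbols came from RefSeq (GRCm38.p6, 25275 identifiers matched) and exon overlaps from GENCODE vM21.

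The filter kept genes whose CPM exceeded 0.2 in 3 or more libraries, which left 17989. They were tested in R 4.3.3 with edgeR 4.0.16 (glmQLFit and glmQLFTest, TMM). A single fit held the 18 libraries, and p-values were adjusted over all genes tested by Benjamini-Hochberg, with a threshold of 0.05. RPKM was computed from counts, deposited gene lengths and TMM-scaled library sizes. Scripts were tested on simulated data. Alternatives were limma 3.58.1 voom, DESeq2 1.42.0, other scaling and filters, a length correction, thinning of the deeper tracheal libraries, fits restricted to the groups in question, pairing by mouse and leaving out each library. In each pathway role, up to 3 genes with a mean of at least 1 RPKM in a group and the largest called changes could be named per comparison, and 3 genes of at least 10 CPM were ranked by likeness to each gene. Members and lists were chosen with earlier results of these data known. The comparison of EpCAM neg with Alveolar cells and the omission of mouse 4 were added after seeing the data.

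Same-numbered libraries of one organ come from the same mouse by their labels. Their deviations from the group means correlated at 0.117 to 0.336 in tracheal mice and at -0.0593 to 0.278 in lung mice. No pair of libraries of a group agreed within sampling noise (chi-square per degree of freedom of at least 3.5). Counting error is largest for Fst, for Bmp7 in Alveolar cells and for Bmp2 in Airway CD24H cells, whose read counts are given.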

Additional observations from a re-analysis of the deposited data

How the results depend on the processing

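Of 1218 values of the 10 genes under alternatives, 1177 kept their direction and their side of the threshold, 28 passed it only under the alternative, 9 lost their call and 4 reversed. All 4 reversals were of differences not called in the fit to all libraries: Id3 in Airway CD24L against Alveolar cells ranged from -0.73 to 0.10 (log2) when single libraries were left out, and leaving out mouse 4 gave 0.059 for Bmp3 in that comparison and 0.078 for Fst in Airway CD24H against Alveolar cells. Of 1813 values of named pathway genes 33 lost their call and 0 reversed. Over all alternatives the number of the 10 genes called was 9 to 10 in Basal against Non-Basal, 6 to 9 between the CD24 gates, 5 to 6 and 8 to 9 for Airway CD24L and CD24H against Alveolar, 9 to 10 for both EpCAM neg comparisons and 8 to 9 in Basal against Alveolar cells. The replicate block pairs libraries by mouse in a fit of the libraries compared alone. It changed the call of Bmpr1a in 3 comparisons (to 0.35 in Basal against Non-Basal cells) and of no other of the 10 genes. Without pairing, such a fit already called Bmpr1a in Basal against Non-Basal (adjusted p = 0.000276) and in Airway CD24L against Alveolar cells (adjusted p = 0.0166). In these comparisons the change cannot be credited to pairing. No paired analysis was possible because of different mice for Basal against Alveolar cells. Scaling by library size alone shifted the median of all genes from -0.02 to 0.31 in Basal against Non-Basal cells, with 7780 higher and 2989 lower genes against 3948 and 4720, and from -0.06 to 0.21 between the CD24 gates, with 7002 and 3233 against 4998 and 4901. The splits were 7285 and 3858 against 5479 and 5652 in Airway CD24H against Alveolar, 7924 and 4363 against 5485 and 6410 in Basal against Alveolar, and 6938 and 4121 against 5875 and 5254 in EpCAM neg against Alveolar cells. The cause was not tested. Under scaling by library size alone, 17 of the 60 group means in RPKM moved by at least the SD of their 3 libraries, and 43 did not. Low read counts limit Fst outside EpCAM neg cells, Bmp7 in Alveolar cells and Bmp2 in Airway CD24H cells.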
